A study of Homo sapiens with 8 samples.

Results

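The genes described here carry the symbols of heterogeneous nuclear ribonucleoproteins (hnRNPs), serine/arginine-rich (SR) splicing factors and their TRA2 relatives, subunits of splicing factor 3 (SF3) and numbered RNA-binding motif (RBM) proteins. They were chosen by symbol alone: every gene whose symbol starts with HNRNP, HNRPD, SRSF, SF3 or TRA2, or with RBM and a digit. In the authors' deposited table of Ago2 binding peaks, 311 of 22506 peaks and 59 of 6326 genes met this rule. The 59 genes fell into 4 classes: 17 hnRNP genes with 160 peaks, 14 SR and TRA2 genes with 70 peaks, 7 SF3 genes with 26 peaks and 21 RBM genes with 55 peaks. The name splicing factor below stands for this whole list, and a role in splicing was not checked for each gene. The hnRNP class includes HNRNPU-AS1, a noncoding transcript.

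Ago2 is the Argonaute protein that carries microRNAs to their target transcripts, and crosslinking with immunoprecipitation (CLIP) recovers the RNA pieces it touches. The study made Ago2 CLIP and RNA-seq libraries from 293S, an established line derived from human embryonic kidney HEK293 cells and grown here as an adherent layer. The control cells were untreated, and the other cells received 20 µg/mL emetine, a plant alkaloid that blocks translation elongation, for 60 minutes. Each treatment was 1 culture, split into 3 CLIP aliquots, each with another Ago2 antibody, and 1 RNA-seq aliquot. By the sample labels, the same 3 antibodies served in both treatments. The p-values below thus measure the spread between aliquots and antibodies and not between cultures. The comparison asks how Ago2 binding to these transcripts differed with and without the treatment, beside the amount of the same RNAs.

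hnRNPs and SR proteins coat nascent transcripts and help to decide which exons are kept, hnRNPs often as repressors and SR proteins often as activators of splicing. SF3a and SF3b are parts of the U2 particle that recognises the branch point of an intron. Many genes of these families also control their own RNA level, through alternative exons or long, conserved 3' UTRs. Such transcripts are abundant in dividing cells.

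Reads per library were recovered from the deposited averages and ratios for 22485 peaks, all 311 splicing factor peaks included. Libraries are numbered within a treatment by depth normalisation alone, and the antibody of each is not known. Listed peaks held 40668, 104691 and 96819 reads across emetine libraries 1 to 3 and, in the same order, 39562, 117500 and 103220 reads across control libraries 1 to 3. The splicing factor peaks held 584, 1401 and 1395 of them under emetine and 559, 1195 and 1170 in the control. Of the 6 HEK293 markers looked up, NEFL and VIM had peaks, and none of the 8 markers of other cell types did. The table lists only genes with an Ago2 peak, so a missing marker says nothing of its RNA.

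Ago2 reads on the splicing factor transcripts lay more in coding sequence and 5' UTRs than the reads of the whole table. Coding sequence held 127 of the 311 peaks (40.8%), the 3' UTRs held 144 (46.3%), the 5' UTRs 27 (8.68%) and exons of noncoding transcripts 13 (4.18%). Over all recovered peaks the shares were 33.2% for coding sequence, 57.6% for 3' UTRs, 4.95% for 5' UTRs and 4.25% for noncoding exons. By reads, coding sequence took 37.0% of the splicing factor reads against 26.5% of all, and 5' UTRs took 10.0% against 4.17%. The classes differed among themselves. Coding sequence held 18 of the 26 SF3 peaks (69.2%), 39.4% of hnRNP peaks, 41.8% of RBM peaks and 32.9% of SR and TRA2 peaks. The 27 peaks in 5' UTRs came from 14 genes, 7 of them hnRNP and 6 SR or TRA2 genes, while the SF3 genes had 0. The 13 noncoding peaks came from HNRNPU-AS1 with 10 and from SRSF6 with 3. These shares describe the list and were not tested.

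Library 1 stood apart in both treatments in where its reads fell. The 5' UTR share of splicing factor reads was 21.7%, 6.64% and 9.18% across emetine libraries 1 to 3 and, in the same order, 19.5%, 7.11% and 7.61% across control libraries 1 to 3. Over all peaks, noncoding exons took 45.7%, 6.27% and 13.7% of the emetine reads and 43.1%, 6.43% and 13.2% of the control reads. The high 5' UTR share was thus a property of library 1 with and without emetine. Library 1 also had the fewest reads, with 1 read counting as 8.86 (emetine) or 8 (control) normalised reads, against 2.43 to 3.00 in the others.

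The splicing factor peaks took 1.44%, 1.34% and 1.44% of all listed reads across emetine libraries 1 to 3 and, in the same order, 1.41%, 1.02% and 1.13% across control libraries 1 to 3. Control library 1 lay among the emetine libraries, and the other control libraries lay below all of them. All listed reads include those in noncoding exons, which took 45.7% of emetine library 1 and 43.1% of control library 1. The emetine mean was 1.41% ± 0.0579 (SD, n = 3) and the control mean 1.19% ± 0.203 (SD, n = 3), a difference of 0.217 percentage points (two-sided exact permutation test, p = 0.2, adjusted p = 0.3 over 2 tests). With 3 libraries against 3 this test cannot go below 0.1. The difference was 0.33 points without control library 1 and 0.132 points without control library 2. With noncoding exons left out it was 0.286 points (two-sided exact permutation test, p = 0.5). The Wilson 95% interval of the share ran from 1.32% to 1.56% in the shallow emetine library 1 and from 1.27% to 1.41% in emetine library 2, and these intervals cover counting error only. In the RNA-seq libraries the same genes held 2.91% of the reads of listed genes with emetine and 2.83% in the control.

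Coding sequence took 35.6%, 47.0% and 34.3% of the splicing factor reads across emetine libraries 1 to 3 and, in the same order, 32.7%, 36.1% and 32.1% across control libraries 1 to 3. Emetine library 2 stood above all others, and the remaining emetine libraries lay within the range of the control. The means were 39.0% ± 7.02 (SD, n = 3) and 33.6% ± 2.15 (SD, n = 3), and the difference of 5.35 percentage points did not pass the two-sided exact permutation test (p = 0.3, adjusted p = 0.3). Without emetine library 2 it was 1.32 points. Over all peaks the coding share was 16.8%, 34.0% and 28.4% under emetine and 17.2%, 27.0% and 24.0% in the control, with library 2 highest and library 1 lowest in both treatments.

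**Figure D1:**
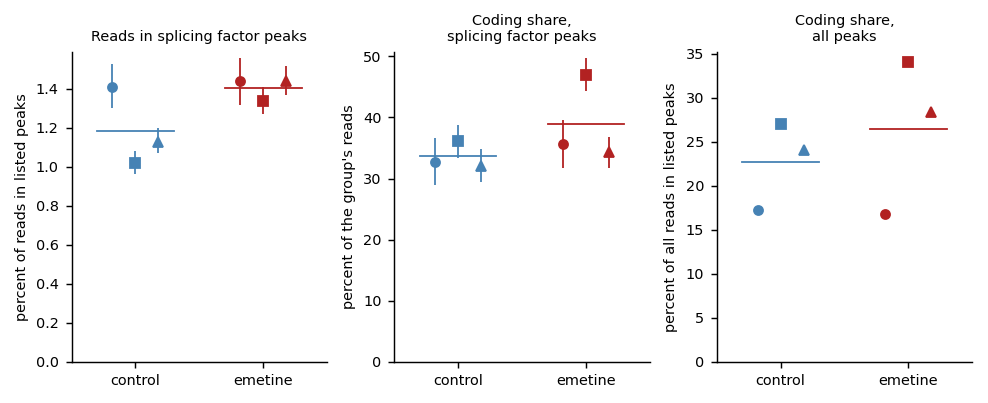
Share of Ago2 reads in splicing factor peaks (left), coding share of those reads (middle) and coding share of all reads (right), in percent, for each CLIP library; circles, squares and triangles are libraries 1, 2 and 3, vertical lines are Wilson 95% intervals and horizontal lines are means. In the left panel control library 1 at 1.41% lies with the emetine libraries, and in the middle panel emetine library 2 at 47.0% lies above the rest.

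No splicing factor peak passed the test between treatments. With limma on log2(normalised reads + 1) over all 22485 peaks, 0 of 311 reached an adjusted p below 0.05, as did 0.0% of all peaks, with 0.784 as the lowest value. Without adjustment, 7 peaks with more reads after emetine and 2 with fewer had a p below 0.05, against 0.769% and 0.298% of all peaks. All 3 emetine libraries lay above all 3 control libraries in 20 peaks and below them in 4, against 2.55% and 1.43% of all peaks. Log2 changes of these peaks had standard errors with a median of 2.04, so a single peak could differ several-fold within the spread between libraries. The median peak held 16 reads over 6 libraries.

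The 311 peaks leaned towards more reads with emetine: 171 (55.0%) had a positive log2 change, against 50.2% of all peaks, and 140 a negative one, against 49.8%, and the median was 0.28 against 0.01. With totals under 3 reads set at 3, the median log2 ratio of scaled read totals was 0.57, against -0.07 over all peaks. The median of the log2 changes was 0.80 without control library 1, where that of all peaks was -0.11, and 0.18 without emetine library 3. Coding peaks numbered 76 with more and 51 with fewer reads, with a median of 0.84 against 0.29 for all coding peaks. Peaks in 3' UTRs numbered 74 and 70, with a median of 0.08 against -0.17. Those in 5' UTRs numbered 18 and 9, with a median of 0.57 against 0.18. Among the 13 noncoding peaks, 3 had more and 10 fewer reads. The order of coding over 3' UTR was thus the same in the splicing factor peaks and in the table as a whole.

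**Figure D2:**
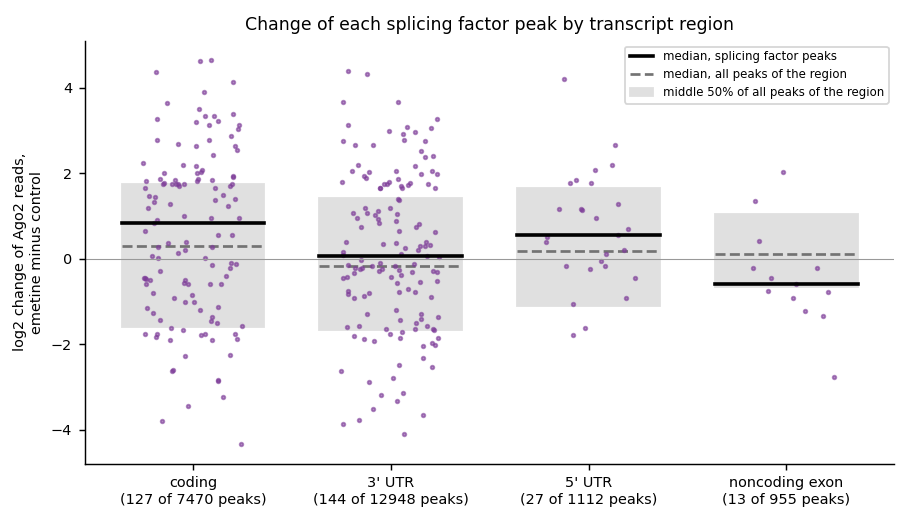
Log2 change of Ago2 reads (emetine minus control, vertical axis) of each of the 311 splicing factor peaks, by transcript region; black lines are their medians, dashed lines the medians of all peaks of the region and grey boxes the middle 50% of all peaks. The coding median of 0.84 lies above the 3' UTR median of 0.08, and single peaks spread far beyond the grey boxes in both directions.

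Summed per gene, 37 of the 59 genes (62.7%) had a positive log2 change, against 51.1% of all 6307 genes, and 22 a negative one, against 48.9%. The median was 0.50 against 0.04, or 0.47 against -0.02 as log2 ratios of totals. It was 0.84 without emetine library 1 (all genes 0.37) and 0.25 without emetine library 2 (all genes -0.07). The number of genes with a positive log2 change was 31 without emetine library 2 and 39 without emetine library 3. In limma 0 of 59 passed an adjusted p of 0.05, as did 0.0% of all genes, with a smallest adjusted p of 0.799. At an unadjusted p under 0.05 stood HNRNPM and SF3B3, both with more reads after emetine (1.11% of all genes), and 0 genes with fewer (0.761% of all). All emetine libraries lay above all control libraries for HNRNPM, TRA2B and RBM15, and below them for RBM25, RBM33 and RBM26 (3.01% and 2.19% of all genes). For TRA2B the gap was narrow and depended on the scaling. By class, 13 of 17 hnRNP genes, 6 of 7 SF3 genes, 12 of 21 RBM genes and 6 of 14 SR and TRA2 genes had a positive change. The SF3 median was 1.74, the RBM median 0.95, the hnRNP median 0.50 and the SR and TRA2 median -0.34. As log2 ratios of totals these medians were 2.03, 1.11, 0.35 and 0.28, so the sign for SR and TRA2 genes depended on the measure. The SF3 median of 1.74 was the value of SF3A3, which had 12 reads, all in emetine library 2. SF3B4, with 11 reads, also rested on that library alone. No recovered peak held fewer than 11 reads in all, so a peak with 0 reads in one treatment was high in the other by selection. Below, a ratio is the emetine to control ratio of read totals after scaling for library depth, with an exact 95% counting interval. A log2 change is limma's. Where a treatment had 0 reads, "at least" compares totals with that treatment set at a floor of 3 reads. It does not allow for this selection or for the spread between libraries.

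**Figure D3:**
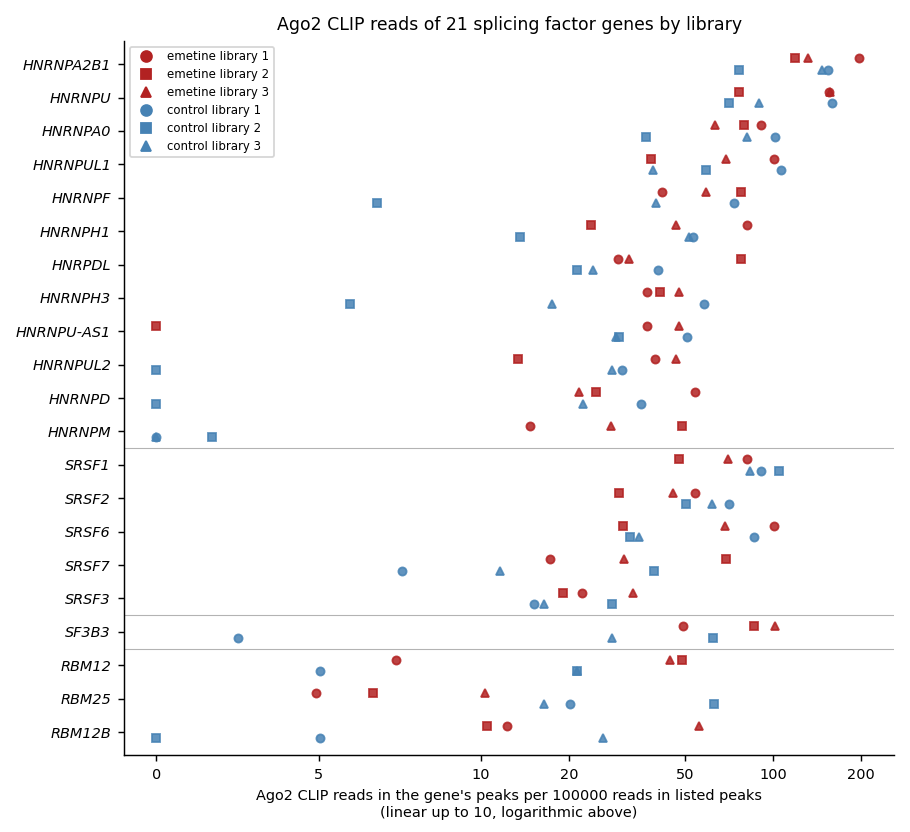
Ago2 CLIP reads of 21 splicing factor genes (the 20 with most reads, and HNRNPM) per 100000 reads in listed peaks, on an axis that is linear up to 10 and logarithmic above; red is emetine, blue is control, and circles, squares and triangles are libraries 1, 2 and 3. For most genes red and blue overlap; for HNRNPM all red points lie to the right of all blue points, and for RBM25 all lie to the left.

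Among the hnRNP genes, HNRNPA2B1 carried the most Ago2 reads of the group. It encodes hnRNP A2/B1, which binds pre-mRNA and also sorts RNAs into transport granules and vesicles. Its 16 peaks held 80, 124 and 127 reads across emetine libraries 1 to 3 and, in the same order, 61, 90 and 152 across control libraries 1 to 3. The treatments overlapped, with a ratio of 1.21 (1.04 to 1.42) and a log2 change of 0.35 ± 0.55 (SE, limma adjusted p = 0.893). The peak with the most reads of the whole group lay in its 3' UTR (hg19 chr7:26231728-26231794, minus strand), with 2, 35 and 29 reads against 7, 16 and 49. A 5' UTR peak at chr7:26240296-26240363 had 23, 5 and 18 reads against 8, 14 and 20, and a coding peak at chr7:26236554-26236625 had 6, 25 and 5 against 8, 12 and 6. These 3 peaks were occupied in every library and did not separate the treatments. Their log2 changes of -0.32, 0.12 and 0.27 turned sign when a library was left out, to 0.46 without emetine library 1, -0.82 without emetine library 1 and -0.20 without emetine library 2.

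HNRNPU encodes hnRNP U, a nuclear matrix protein that binds both RNA and chromatin. It had the most peaks, 27, with 63, 80 and 151 reads under emetine and 63, 83 and 92 in the control (ratio 1.37, 1.15 to 1.64, limma adjusted p = 0.894). The ratios of its regions lay on either side of 1. The 16 peaks of the 3' UTR held 31, 47 and 123 reads under emetine and 13, 61 and 43 in the control, a ratio of 1.91 (1.51 to 2.42). The 8 coding peaks held 15, 31 and 6 against 26, 22 and 48, a ratio of 0.602 (0.421 to 0.852). Both regional comparisons overlapped between treatments, and neither passed limma over all sums per gene and region (adjusted p = 0.757 for both). Of the 101 such sums in the 59 genes, 0 passed (0.0% of all sums); without adjustment, 3 with more reads after emetine (1.13% of all) and 0 with fewer (0.725% of all) had a p below 0.05: coding SF3B3, coding HNRNPM and the 3' UTR of HNRNPH3. The 3' UTR peak at chr1:245016192-245016247 had 2, 15 and 29 reads against 0, 3 and 6. Another at chr1:245017115-245017138 had 2, 6 and 9 reads against 0, 0 and 0, at least 6.3-fold more, with the floor of 3 reads taken over the control libraries (log2 change 4.40 ± 2.06, SE, limma adjusted p = 0.784). At this site the emetine libraries lay above all control libraries.

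HNRNPU-AS1, a noncoding transcript named for its place beside HNRNPU, was listed on the minus strand like the HNRNPU peaks. Its 10 peaks held 15, 0 and 46 reads under emetine and 20, 35 and 30 in the control (ratio 0.797, 0.564 to 1.12). Emetine library 2 alone had 0 reads; the log2 change of -2.03 ± 1.27 (SE, limma adjusted p = 0.799) became 0.32 without that library. HNRNPUL1, a relative of HNRNPU, had 41, 40 and 67 reads against 42, 69 and 40 in 15 peaks, with overlapping treatments and a log2 change of 0.12 that became -0.30 without emetine library 1 and -0.34 without control library 3. Its 3' UTR held 2 abutting peaks of different behaviour. At chr19:41812825-41812881 the reads were 5, 1 and 29 against 3, 12 and 11, with a log2 change of -0.23 that became 1.08 without emetine library 2. At chr19:41812882-41812910 they were 0, 0 and 0 against 5, 7 and 2, at least 4.2-fold fewer with emetine (limma adjusted p = 0.784). HNRNPUL2, the other relative, had 16, 14 and 45 against 12, 0 and 29 (ratio 2.03, 1.37 to 3.05), and its treatments overlapped too; its log2 change of 2.27 was 0.15 without control library 2.

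HNRNPF, HNRNPH1 and HNRNPH3 encode a family of proteins that bind G-rich tracts in RNA. HNRNPF had 17, 81 and 57 reads under emetine and 29, 8 and 41 in the control in 15 peaks (ratio 2.21, 1.67 to 2.94, log2 change 1.14 ± 0.92, SE, limma adjusted p = 0.799). That change was 0.25 without control library 2 and 1.90 without control library 1. The higher total came from emetine libraries 2 and 3 and from coding sequence. There the reads were 6, 61 and 44 against 18, 0 and 17 (ratio 3.52, 2.39 to 5.31). Overlapping coding peaks with the same 19 reads are counted for each peak here. With identical peaks of HNRNPF counted once, its ratio was 2.08 (1.54 to 2.82) and its log2 change 1.09. HNRNPH3 had 15, 43 and 46 reads against 23, 7 and 18 (ratio 2.41, 1.69 to 3.46, limma adjusted p = 0.799), with a log2 change of 1.24 that was 0.53 without control library 2. In its 3' UTR the reads were 7, 35 and 43 against 3, 0 and 10 (ratio 7.27, 4.03 to 14.2), in its coding sequence 8, 8 and 3 against 20, 7 and 8 (ratio 0.603, 0.326 to 1.08). Most of the 3' UTR reads lay in a peak at chr10:70102769-70102802, with 7, 9 and 43 reads against 3, 0 and 8. HNRNPH1 differed little, with 33, 25 and 45 against 21, 16 and 53 in 9 peaks and a log2 change of 0.50 that became -0.03 without emetine library 1 and -0.06 without control library 2. Its peak with the most reads lay in coding sequence at chr5:179047908-179047962, with 1, 23 and 3 reads against 3, 12 and 20.

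HNRNPM encodes hnRNP M, a regulator of alternative exons, and had the smallest p of the 59 genes. Its 5 peaks, all in coding sequence, held 6, 51 and 27 reads under emetine and 0, 2 and 0 in the control. Every emetine library lay above every control library, with a ratio of 46.7 (12.5 to 392) and a log2 change of 5.52 ± 2.03 (SE, limma unadjusted p = 0.00643, adjusted p = 0.799). The gene-level RNA ratio was 0.12 on the log2 scale, from 2911 and 1054 reads. The peak at chr19:8548048-8548075 had 1, 12 and 15 reads against 0, 0 and 0, at least 10.4-fold more. Of its other peaks, 2 overlapped each other and had the same 17 reads, which the totals above count for each peak. Counted once, the reads were 6, 36 and 26 against 0, 1 and 0, and the log2 change was 5.60 (limma adjusted p = 0.799). The ratio was then 75.6, with an interval of 13.1 to 3030 that rests on the single control read.

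HNRNPA0, HNRNPD and HNRPDL encode proteins that bind AU-rich elements, sequences in 3' UTRs that govern mRNA decay. HNRNPA0 had 37, 83 and 61 reads against 40, 43 and 84 in 16 peaks, 12 of them in its 3' UTR; its log2 change of 0.27 became -0.08 without control library 2. HNRNPD had 22, 26 and 21 reads against 14, 0 and 23 (ratio 2.07, 1.37 to 3.18), where control library 2 alone had 0; the log2 change of 2.39 was 0.28 without it. HNRPDL had 12, 81 and 31 reads against 16, 25 and 25 (ratio 2.09, 1.54 to 2.86), and 11 of its 12 peaks lay in coding sequence. None of these genes passed the test (limma adjusted p 0.956, 0.799 and 0.869). In the other direction, the only peak of HNRNPAB, a coding peak at chr5:177633812-177633854, had 0, 0 and 0 reads under emetine and 5, 23 and 0 in the control. The emetine total was at least 8.4-fold lower, but the libraries overlapped (limma adjusted p = 0.784). Control library 2 held 23 of the 28 control reads.

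Among the SR genes, SRSF1 and SRSF2 had fewer reads under emetine and SRSF3, SRSF6 and SRSF7 more, and none passed the test. SRSF1, the founding SR protein, had 33, 50 and 68 reads under emetine and 36, 123 and 86 in the control in 17 peaks (ratio 0.685, 0.555 to 0.842, log2 change -0.44 ± 0.70, SE, limma adjusted p = 0.893). Control library 2 was the highest and the others overlapped. The 3' UTR peak with the most reads, at chr17:56082442-56082503, had 5, 19 and 1 reads against 7, 31 and 28 (ratio 0.421, 0.254 to 0.676). The coding sequence held peaks of both directions. At chr17:56082856-56082899, near its end, the reads were 4, 4 and 11 against 0, 1 and 1, with all emetine libraries above all control libraries (ratio 10.6, 2.55 to 93.5, limma adjusted p = 0.784). Over all 7 coding peaks the reads were 18, 12 and 24 against 11, 77 and 23 (ratio 0.541, 0.383 to 0.755).

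SRSF2 (SC35) had 22, 31 and 44 reads against 28, 59 and 64 in 10 peaks, with a ratio of 0.714 (0.547 to 0.927, limma adjusted p = 0.919). Its peak with the most reads, in the 3' UTR at chr17:74730533-74730613, had 5, 6 and 5 reads under emetine and 10, 17 and 23 in the control, and these did not overlap (ratio 0.356, 0.189 to 0.635). Another peak listed in a 3' UTR, at chr17:74732236-74732279, had 7, 4 and 7 reads against 0, 0 and 3, again without overlap but in the other direction (ratio 6.67, 1.95 to 35.3). Neither peak passed limma (adjusted p = 0.784 for both).

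SRSF3 and SRSF7 encode small SR proteins that also help to export mRNA. SRSF3 had 9, 20 and 32 reads against 6, 33 and 17 in all, a ratio of 1.21 (0.828 to 1.77), yet the ends of the transcript differed. The 2 overlapping 5' UTR peaks held 9, 20 and 32 reads against 5, 0 and 12 (ratio 3.99, 2.3 to 7.28). One lies within the other, so reads may be counted for both and the interval may be too narrow. The 2 peaks of the 3' UTR held 0, 0 and 0 reads under emetine and 1, 33 and 5 in the control, at least 11.7-fold fewer. Emetine and control libraries did not overlap in the 3' UTR, but most control reads came from library 2, and neither end passed limma (adjusted p = 0.757 for both). The 5' UTR peak with the most reads lay at chr6:36562161-36562237, with 5, 20 and 21 against 5, 0 and 6. SRSF7 had 7, 72 and 30 reads against 3, 46 and 12 (ratio 1.99, 1.44 to 2.76), with library 2 highest in both treatments. Its log2 change of 1.19 was 0.67 without emetine library 2, and its coding peak at chr2:38976814-38976839 had 2, 24 and 2 against 0, 0 and 0, at least 10.4-fold more.

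SRSF6 had 41, 32 and 66 reads against 34, 38 and 36 in 9 peaks (ratio 1.43, 1.1 to 1.86). Its log2 change of 0.45 became -0.03 without emetine library 1. Of its reads, 77 with emetine and 49 in the control fell into a 21-base peak of the 3' UTR at chr20:42090017-42090038, with 6, 9 and 62 against 4, 26 and 19. The higher total rested on emetine library 3, and the log2 change of 0.40 became -0.32 without that library. The 3 peaks in exons of a noncoding SRSF6 transcript had 21, 0 and 0 reads against 8, 0 and 17.

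TRA2B encodes a splicing activator of the same domain type, and its 4 peaks held 5, 30 and 17 reads under emetine and 5, 1 and 18 in the control. After normalisation all emetine libraries lay above all control libraries (ratio 2.41, 1.46 to 4.08, log2 change 1.61 ± 1.49, SE, limma adjusted p = 0.799). The gap was narrow: 5 reads at 8.86 each in emetine library 1 stood against 18 at 2.43 each in control library 3. Relative to listed reads (5 of 40668 against 18 of 103220) emetine library 1 lay below control library 3, so the treatments then overlapped. The read totals of its regions went both ways, on few reads. The 2 coding peaks held 0, 14 and 17 reads against 0, 0 and 0, and each rested on 1 library. The 3' UTR peak held 0, 0 and 0 against 4, 0 and 9, and the 5' UTR peak 5, 16 and 0 against 1, 1 and 9. None of these regions passed limma (adjusted p 0.757, 0.757 and 0.968). SRSF10 and SRSF12, with 1 peak each, had 0 reads under emetine and 11 and 21 in the control, each from 1 library. The remaining SR and TRA2 genes, SRSF4, SRSF5, SRSF8, SRSF9, SRSF11 and TRA2A, had between 14 and 83 reads in all.

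The SF3 genes had few peaks, and SF3B3 held most of their reads. It encodes a scaffold subunit of SF3b, and its 14 peaks had 20, 90 and 98 reads under emetine and 1, 73 and 29 in the control. The ratio was 2.24 (1.76 to 2.87) and the log2 change 2.22 ± 0.95 (SE, limma unadjusted p = 0.0202, adjusted p = 0.799), with emetine library 1 inside the range of the control. Without control library 1 the log2 change was 0.96, and without control library 2 it was 3.23. The 9 coding peaks held 14, 73 and 95 reads against 0, 19 and 13 (ratio 6.32, 4.32 to 9.51, log2 change 4.01 ± 1.33, SE, limma adjusted p = 0.757). The 5 peaks of the 3' UTR held 6, 17 and 3 against 1, 54 and 16 (ratio 0.407, 0.249 to 0.646), but control library 2 held 54 of the 71 control reads. After normalisation the treatments overlapped in the 3' UTR (log2 change -0.35 ± 1.5, SE, limma adjusted p = 0.972). The coding peak at chr16:70575575-70575615 had 2, 56 and 22 reads against 0, 1 and 1, the smallest p of the 311 peaks (ratio 44.4, 11.9 to 373, log2 change 4.63 ± 1.83, SE, limma unadjusted p = 0.0114, adjusted p = 0.784). The next coding peak downstream had 0, 6 and 0 against 0, 17 and 0, all in library 2. The RNA ratio of SF3B3 was 0.12 on the log2 scale.

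The other SF3 genes had at most 87 reads each. SF3A2, a subunit of SF3a, had 25, 19 and 8 reads against 16, 11 and 8 (ratio 1.65, 1.06 to 2.61). SF3B1, the subunit that clamps the branch point, had 1, 2 and 20 against 0, 0 and 4, most of them from emetine library 3. Its 2 coding peaks overlap and may share reads. SF3B2 was the only SF3 gene with a negative log2 change, -1.43, with 0, 22 and 0 reads against 4, 0 and 16. SF3A1, SF3A3 and SF3B4 had 1 peak each, with 11 or 12 reads with emetine, nearly all in library 2, and 0 in the control. The class took 8.05%, 11.8% and 9.03% of the splicing factor reads under emetine and 3.76%, 7.03% and 4.87% in the control. These shares did not overlap; they rest largely on SF3B3 and were not tested.

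**Figure D4:**
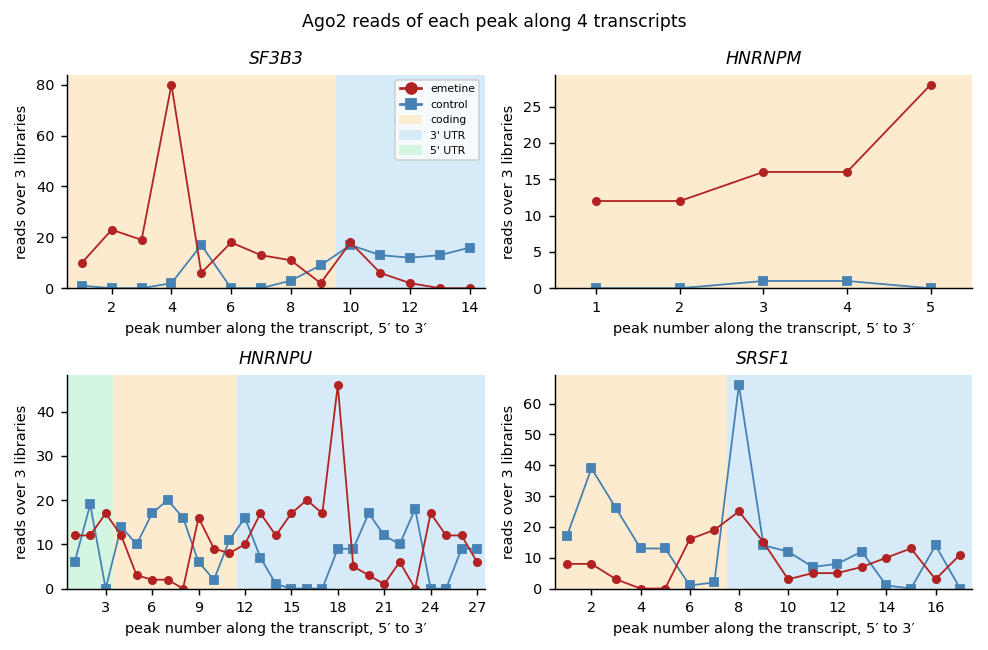
Reads summed over 3 libraries (vertical axis) in each peak of SF3B3, HNRNPM, HNRNPU and SRSF1, in 5′ to 3′ order along the transcript (horizontal axis, peak number); red circles are emetine, blue squares control, and shading marks the transcript region. In SF3B3 emetine is higher at most coding peaks, 182 against 32 reads in all, and control is higher in the 3' UTR, 71 against 26 reads.

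The RBM genes had few peaks each. RBM25, a regulator of apoptosis-related splicing, was the member with most reads that had fewer in every emetine library: 2, 7 and 10 against 8, 74 and 17 in 7 peaks. The ratio was 0.213 (0.123 to 0.351) and the log2 change -1.86 ± 1.35 (SE, limma adjusted p = 0.799), with most control reads in library 2. Coding sequence (8 against 42 reads) and the 3' UTR (11 against 57) went the same way. Its 3' UTR peak at chr14:73586836-73586889 had 0, 1 and 0 reads against 3, 13 and 5 (ratio 0.0529, 0.00128 to 0.329).

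RBM12 had 3, 51 and 43 reads under emetine and 2, 25 and 22 in the control (ratio 2.2, 1.54 to 3.17), and its log2 change of 0.99 was 0.36 without control library 1. RBM12B had 5, 11 and 54 against 2, 0 and 27 (ratio 2.68, 1.72 to 4.29), with a log2 change of 2.57 that was 0.88 without control library 2. All 6 of its 3' UTR peaks had a positive log2 change, but they include pairs with the same reads in every library. With identical peaks counted once, the gene had 3, 11 and 31 reads against 1, 0 and 27 (ratio 1.79, 1.09 to 2.97, log2 change 2.37). Its coding peak had 20 reads in control library 3 alone. RBM15, part of the complex that deposits m6A on RNA, had 1, 12 and 5 reads against 0, 0 and 0 in its 1 coding peak, chr1:110884277-110884321, at least 6.67-fold more. RBM33 had 5, 9 and 4 against 7, 19 and 34; its peak with the most reads, also the highest of the class, lay in the 3' UTR at chr7:155568000-155568026, with 2, 9 and 4 reads against 3, 11 and 22. In RBM27 the 3' UTR held 6, 0 and 0 reads against 1, 42 and 21 (ratio 0.104, 0.0369 to 0.239), and a peak there at chr5:145667238-145667268 held 0, 0 and 0 against 0, 23 and 15. Its coding peak went the other way, with 1, 0 and 20 reads against 1, 0 and 1 (ratio 11.7, 2.85 to 103). Over the whole gene the RBM27 ratio was 0.455 (0.279 to 0.721). None of these genes passed the test (limma adjusted p from 0.799 to 0.815).

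Many of these peaks rested on 1 library. All reads came from 1 library in 52 of the 311 peaks (16.7%), against 26.4% of all peaks, and from at least 3 libraries in 187 (60.1%), against 45.4%. Peaks with reads in 1 library only made up 8.12% of hnRNP, 18.6% of SR and TRA2, 26.9% of SF3 and 34.5% of RBM peaks. In 57 peaks (18.3%) the control had 0 reads and in 37 (11.9%) the emetine libraries had 0, against 17.7% and 20.2% of all peaks. In 8 pairs of peaks of the same gene all 6 read numbers were equal, and 5 of these pairs overlapped. The others lay apart in SRSF1, HNRNPK and RBM12B. Overlapping peaks with unequal reads may also share reads. Totals count shared reads for each peak, and counting intervals may then be too narrow. The pair in the 5' UTR of HNRNPK, which encodes a protein that binds C-rich RNA, had 4, 0 and 0 reads against 0, 18 and 0 each.

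Other splicing genes, taken from a list of 148 that holds none of the 59, did not lean in the same way. Peaks were listed for 96 of them, and 47 had a positive and 49 a negative log2 change, with a median of -0.01. In limma 0 passed an adjusted p of 0.05, and 2, both with more reads after emetine, had an unadjusted p under 0.05. The smallest p belonged to MATR3, which encodes the nuclear matrix protein matrin 3, with 3, 35 and 36 reads against 1, 0 and 5 (log2 change 3.77). SF1, the branch point binding protein, had 14, 41 and 14 against 21, 0 and 6. MBNL1, the muscleblind splicing factor, had 0, 82 and 32 against 4, 113 and 71, and its log2 change of -2.12 became 0.29 without emetine library 1. The difference between this list and the 59 genes was not tested.

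The RNA of the 59 genes differed little between the treatments. With 1 RNA library per treatment there was no test. The median log2 ratio of emetine to control was 0.0044, against 0.0061 over 5796 genes with at least 50 reads. It was positive for 30 genes (51.0% of all genes) and negative for 29. The values ran from -0.52 to 1.19 with an SD of 0.26 over these genes, against 0.35 over all. These ratios are normalised between the libraries, so a change shared by all RNAs would not show. Bulk RNA also averages over the cells of a culture. Above 0.5 lay 1 gene (6.21% of all genes) and below -0.5 lay 2 (5.9% of all). RBM7, a part of the nuclear exosome targeting complex, gave 93 emetine and 16 control reads, which put its log2 ratio at 1.19 with a wide interval of 0.42 to 2.06. HNRNPF, at 0.45 from 1187 and 342 reads, came next, followed by SRSF8 at 0.36, RBM27 at 0.31 and SF3A2 at 0.24. The lowest were HNRNPU-AS1 at -0.52 from 1141 and 645 reads, RBM14 at -0.51, HNRNPA1 at -0.50, RBM24 at -0.44 and HNRNPA3 at -0.38. HNRNPM and SF3B3, with the smallest p in the CLIP libraries, lay at 0.12 each, and RBM25 lay at 0.02. These libraries counted 2029 and 736 reads for SF3B3 and 1493 and 580 for RBM25.

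**Figure D5:**
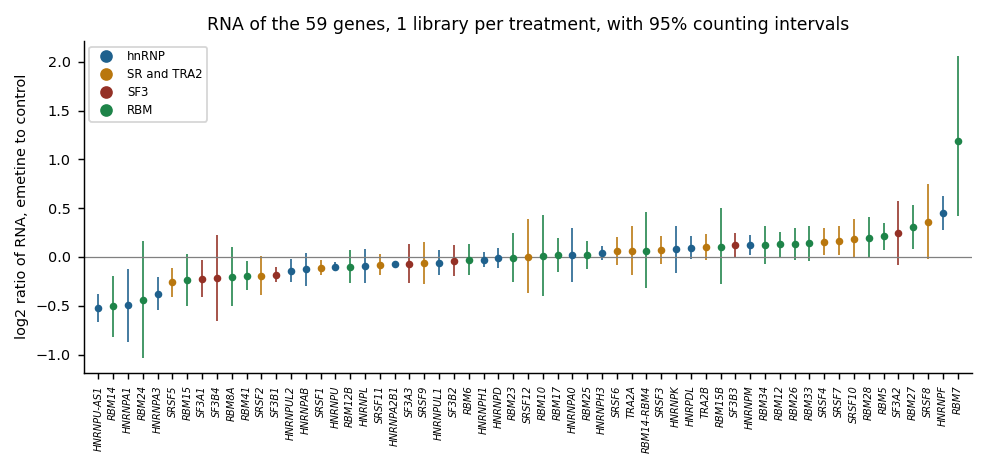
Log2 ratio of RNA-seq reads, emetine to control (vertical axis), of the 59 genes in rising order (horizontal axis), with exact 95% intervals for counting error; colours mark the classes. All but 3 genes lie within 0.5 of zero, and the interval of RBM7, the highest at 1.19, is the widest upwards.

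The microRNAs that Ago2 carries find a transcript by their seed. The mature forms of 5 microRNAs from families found in many cultured human cells follow, 5′ to 3′ from RefSeq (GRCh38), with the seed (bases 2 to 8, which pairs with the target) in capitals, since sites for these seeds were looked up in the 3' UTRs.
let-7a-5p: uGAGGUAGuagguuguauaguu
miR-16-5p: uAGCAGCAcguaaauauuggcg
miR-17-5p: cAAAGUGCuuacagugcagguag
miR-19b-3p: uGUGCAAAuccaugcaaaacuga
miR-92a-3p: uAUUGCACuugucccggccugu
The sites searched, on the sense strand, were CTACCTC for let-7, TGCTGCT for miR-16, GCACTTT for miR-17, TTTGCAC for miR-19 and GTGCAAT for miR-92a, in the longest GENCODE 3' UTR of each gene. Sites for miR-17 and miR-19 can overlap by their shared letters GCAC.

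Of the 43 splicing factor genes with a 3' UTR peak, 42 had such a sequence, with a median of 2462 bases, against 2166 bases over 4060 genes. A let-7 site occurred in 3 of the 42 (7.14%), RBM12B, SRSF10 and SRSF8, against 15% of all. A miR-92a site occurred in 3 (7.14%), RBM23, RBM25 and SRSF3, against 19.4%. The miR-16 site occurred in 26.2% against 34.5% and the miR-17 site in 28.6% against 35.1%. The miR-19 site was the only one of the 5 more frequent than in all genes, 31.0% against 25%, and its 13 genes included HNRNPU, HNRNPF, HNRNPA0, SF3B3 and SRSF6. In windows of 300 bases the shares were 0.845% against 1.85% for let-7, 1.13% against 2.33% for miR-92a, 4.23% against 5.0% for miR-16, 3.94% against 5.48% for miR-17 and 3.38% against 3.21% for miR-19. The 3' UTR of SF3B3 held sites for miR-16, miR-17 and miR-19. A match of letters is not a site in use, and whether a site lies under a peak was not examined, since the peaks are placed on another build.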

How the data were processed

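The 8 libraries gave 1 peak table. Its 2 value columns, natural logs by their values, were deposited by the authors as a normalised log average and a log ratio of emetine to control, per the file headers. The values also show that both treatments are taken relative to RNA. The submitters' processing notes name hg19, Bowtie 0.12.8, TopHat and DESeq, without roles. The sources used here give neither the peak caller nor the start convention, so coordinates stand as the table has them.

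The value per treatment, average plus or minus 0.5 times ratio, equalled ln(1 + reads × factor), averaged over 3 CLIP libraries, less the same of the RNA. Whole reads and factors that meet this within 2e-13 were found for 99.9% of peaks; 21 peaks without a match (no splicing factor peak) were left out. Shifted values matched by chance at 14 of 4502 (emetine) and 5 of 4502 (control) peaks, and on simulated peaks 100.0% and 99.93% were recovered and 0.0% wrongly. The header gives each treatment, and antibodies were left unassigned.

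limma 3.58.1 in R 4.3.3 (trend, treatment alone, no filter, Benjamini-Hochberg at 0.05) was fitted on log2(reads × factor + 1) over all peaks, over all genes and over all sums per gene and region; it was tested on simulated data. Factors were the authors' normalisation as recovered. Ratios use read totals scaled by depth, and intervals are exact 95% ones; 0 reads were set at a floor of 3 over the libraries of a treatment. Shares were compared by exact permutation tests (scipy 1.17.1, Python 3.11.15). Seed sites were searched in 3' UTRs of GENCODE v29, matched by symbol; the 3' UTR peaks spanned no more than this length in 38 of 42 genes.

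The named genes were the 20 with most reads; the named peaks the 12 with most reads, the 12 with the smallest p (1 per gene) and the highest of each class; 5 RNA ratios at each end, among genes with at least 50 reads; and 4 other splicing genes, of which 1 is not reported here. Others were named after their values were seen. The members and lists were chosen with earlier results of these data known.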

Additional observations from a re-analysis of the deposited data

How the results depend on the processing

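The count of splicing factor peaks and genes past an adjusted p of 0.05 was 0 in limma under every alternative run: an added constant of 0.5 or 5, peaks with reads in at least 3 libraries, scaling to the listed reads, each library left out and, for peaks, identical peaks once and limma-voom. The smallest adjusted p over these ran from 0.757 to 0.979 for peaks and from 0.746 to 1 for genes. Sums per gene and region and, for genes, identical peaks once were chosen after seeing the data and gave 0 as well. limma-voom over genes could not be fitted usefully (median p 0.939) and is not used. With few reads per peak, only large differences shared by all libraries could have been detected. The share of reads in splicing factor peaks differed by 0.132 to 0.33 percentage points, and their coding share by 1.32 to 7.71 points, with each library left out. Without noncoding exons these differences were 0.286 and 5.14 points (two-sided exact permutation test, p = 0.5 and 0.2). With identical peaks once they were 0.205 and 5.56 points. The RNA median moved from 0.0044 to 0.0763 when scaled to the RNA reads of listed genes, which shifts every gene alike.

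No other alternative turned a sign among 25 named genes (300 values, 8 turned) and 23 named peaks (297 values, 8 turned); all turns came from leaving a library out. With each library left out, log2 changes ran from -0.0837 to 0.612 for HNRNPA0, -0.341 to 0.55 for HNRNPUL1, -0.0345 to 0.939 for SRSF6, -0.0635 to 0.945 for HNRNPH1, -3.21 to 0.318 for HNRNPU-AS1 and -3.68 to 0.293 for MBNL1. For the HNRNPA2B1 peaks they ran from -0.794 to 0.458 (3' UTR), -0.82 to 1.02 (5' UTR) and -0.267 to 0.969 (coding), for the SRSF6 3' UTR peak from -0.322 to 0.999 and for the HNRNPUL1 3' UTR peak from -1.1 to 1.08. The cause was not tested.

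The design matches the treatments by antibody, and the main tests fitted treatment alone, so differences between antibodies stayed in their error. The labels give no antibody for a recovered library, so its number, a rank of depth, cannot be taken for that match. A replicate block on these numbers, also added after seeing the data, gave 0 splicing factor peaks and genes in limma (smallest adjusted p 0.816 and 0.749), beside 3 of all peaks and 1 of all genes. At an unadjusted limma p under 0.05 the block gave 18 splicing factor peaks, beside 638 of all peaks. The main fit gave 9 beside 240. For genes these counts were 4 beside 224 with the block and 2 beside 118 in the main fit. Over 6307 genes, the deviations of libraries with the same number from their treatment's mean correlated at 0.167, 0.0561 and 0.0213, and each library but control library 3 had its highest correlation with its own number. Within the numbers the share of reads in splicing factor peaks was higher with emetine by 0.023, 0.321 and 0.307 percentage points and their coding share by 2.88, 11 and 2.21 points, a block difference of 0.217 and 5.35 points (exact paired permutation p = 0.25 for both, the smallest that 3 pairs allow).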
